A study of Mus musculus with 4 samples.

Results

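The transcripts described here come from 4 mouse genes, Eef1a1, Eef2, Rps26 and Rpl3, which are known for abundant mRNAs of the terminal oligopyrimidine (TOP) class. A TOP mRNA begins with a cytidine followed by an unbroken tract of pyrimidines. Its translation is switched on and off together with that of the other ribosomal protein and elongation factor mRNAs when growth signals through mTOR change. An eIF4A helicase is part of the cap-binding complex eIF4F, in which it unwinds the 5′ leaders of mRNAs. How far TOP mRNAs depend on that helicase cannot be told from these data. The members were every enriched interval (peak) of the deposited list whose midpoint fell in a given window around each gene on the strand of its RNA. They numbered 16 of the 47777 peaks in the list, with 12 in the Eef1a1 window, 3 in the Eef2 window, 1 in the Rps26 window and 0 in the Rpl3 window.

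The binding of eIF4A2, a DEAD-box RNA helicase, was measured by eCLIP in J1 embryonic stem cells of strain 129S4/SvJae, which were kept undifferentiated by serum and LIF. The 2 IP libraries hold RNA recovered with an antibody to eIF4A2 after ultraviolet crosslinking, and the 2 input libraries give the background. No other treatment or altered allele is named for either group, and every library comes from a single cell line. A peak carries a single log2 fold of IP over input for all 4 libraries, calculated by the authors, so a fold has no replicate error, no p-value and no known depth. No test between conditions could be made, and all values below are descriptions. Positions of peaks are in mm9 and count from 1. The gene windows were taken as given and were not checked against an mm9 annotation, so exons, introns and untranslated regions under the peaks were not assigned.

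The sequence around the annotated transcription start was examined first, because a pyrimidine tract there is what names the class. The RefSeq promoter table (GRCm38.p6) held Eef1a1, Eef2 and Rps26, but Rpl3 was not matched. For each gene, 30 bases before and 30 bases after the annotated start are shown 5′ to 3′ on the strand of the RNA. Capitals mark the letters TATAA, a core promoter element when it lies upstream of a start, and the longest run of C and T that begins with C, has at least 4 further pyrimidines and reaches past the start.

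Eef1a1: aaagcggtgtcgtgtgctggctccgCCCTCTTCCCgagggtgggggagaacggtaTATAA

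Eef2: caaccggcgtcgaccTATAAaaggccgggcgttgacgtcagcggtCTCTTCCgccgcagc

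Rps26: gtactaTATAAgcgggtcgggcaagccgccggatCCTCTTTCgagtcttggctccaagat

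These stretches lie at chr9:78481695-78481754 on the minus strand for Eef1a1, chr10:81176601-81176660 on the plus strand for Eef2 and chr10:128626477-128626536 on the minus strand for Rps26. Both motifs were present in each of the 3. In Eef2 and Rps26 the TATAA began 15 and 24 bases before the annotated start, and runs of 7 and 8 pyrimidines began at positions 16 and 5 after it, counting the start as 1. In Eef1a1 the order was the other way round, with the run of 10 pyrimidines spanning the annotated start and the TATAA beginning at position 26 after it. The marked Eef1a1 run thus lies upstream of the TATAA, which ends the bases shown, and sequence beyond it was not searched for a run. Whether any marked run is the tract that begins the mRNA was not tested. A run of this kind was found in 36.8% of the 32851 promoters of the table, TATAA in the same 60 bases on the RNA strand in 4.21%, and both in 1.64%. Over the whole 300 bases and both strands, TATAA was found in 24.9%. A match describes letters only, and no peak was placed on these sequences because the builds differ.

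Most of the peaks, 12 of 16, lay in the window of Eef1a1, whose protein carries aminoacyl-tRNA to the ribosome. The window of Eef2, which encodes the translocation factor, held 3, and the windows of the ribosomal protein genes Rps26 and Rpl3 held 1 and 0. None of the 16 peaks reached a log2 fold of 2 (4-fold), a level passed by 28.3% of the whole list, and none reached 3 (8-fold), passed by 4.03% of the list. On the log2 scale, their folds had a median of 1.497 (quartiles 1.16 and 1.65), against 1.65 (quartiles 1.29 and 2.07) over all 47777 peaks. The highest of them, 1.74, lay in the Rps26 window. Only 3 of the 16 exceeded the median of the list, namely the Rps26 peak and 2 Eef1a1 peaks. The list holds only folds above 2-fold, so its values describe the enriched intervals and not every bound position.

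**Figure D1:**
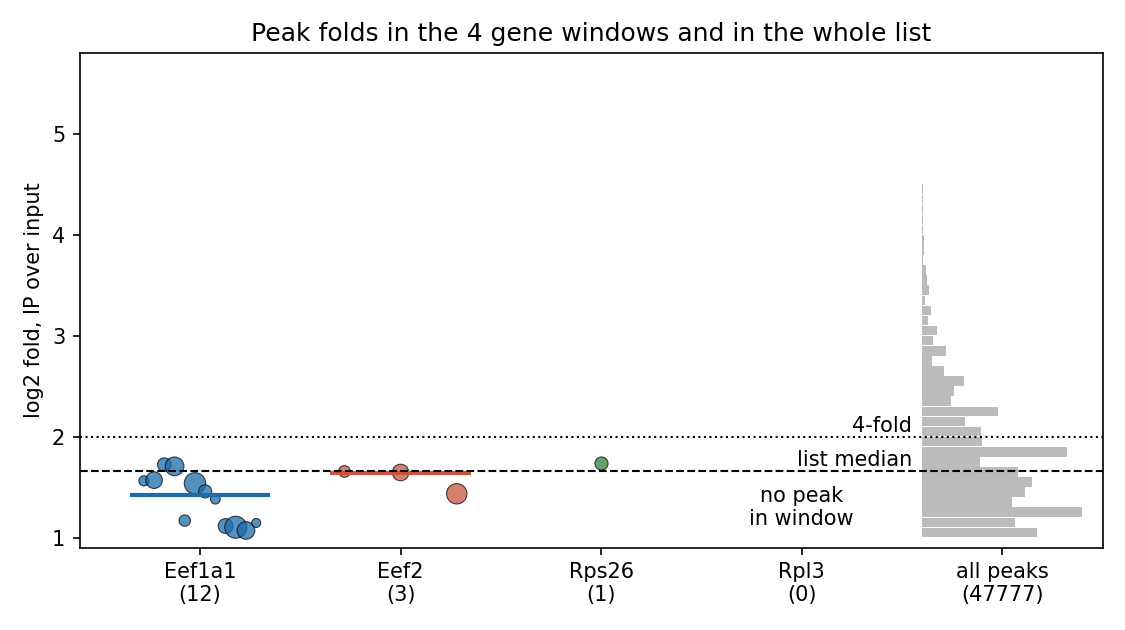
Log2 fold of IP over input (vertical axis) of each peak in the windows of Eef1a1, Eef2, Rps26 and Rpl3, with the number of peaks below each name; points run 5′ to 3′ within a gene and their area grows with peak width, short bars are medians, and the grey bars on the right show the distribution of all 47777 peaks scaled to its highest bin. All 16 peaks lie below the dotted 4-fold line, and the Eef1a1 points are lowest at the 3′ side.

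The Eef1a1 window (chromosome 9, minus strand, 78324000 to 78331000) held 12 peaks. Their log2 folds ran from 1.07 to 1.72 with a median of 1.42, a 2.67-fold enrichment, and quartiles of 1.14 and 1.56. The peaks covered 308 bases, or 11.3% of the 2718 bases between the first and the last of them, introns included. They were 3 to 61 bases wide with a median of 20.5 bases, against 32 bases in the list. The opposite strand of the window held 0 peaks. The nearest peaks on the minus strand lay 33.4 kb below and 68.9 kb above the window.

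At the 5′ end of the group, a peak at 78329477 to 78329482 had a log2 fold of 1.56 and touched the next one, at 78329446 to 78329476, with 1.57. They were followed at 78329400 to 78329417 by the strongest peak of the gene, with 1.72, and at 78329302 to 78329343 by a peak with 1.70. These 4 peaks lay within 181 bases of each other and had the highest folds of the 12. Further along the RNA, the peak at 78329176 to 78329185 had 1.17, the one at 78329052 to 78329108 had 1.54, and the one at 78328930 to 78328945 had 1.46. After a gap of 434 bases, a touching pair at 78328491 to 78328495 and 78328468 to 78328490 had 1.38 and 1.11. The 10 bases of the 1.17 peak were thus the only value under 1.38 among the first 8 peaks.

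The 3 remaining Eef1a1 peaks were separated from the others by 1125 bases and were uniformly low. The peak at 78327282 to 78327342 was the widest of the gene, at 61 bases, and had a log2 fold of 1.10. The last pair touched end to end, at 78326768 to 78326803 with 1.07 and at 78326765 to 78326767 with 1.14. The widest peak of the gene was therefore among the 3 weakest. Joined at up to 1000 bases, the gene made a stretch of 9 peaks and a stretch of 3, and at 10000 bases a single chain of 12.

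Folds were lower toward the 3′ end of the Eef1a1 RNA. The 6 peaks nearest the 5′ end had a median log2 value of 1.57 (range 1.17 to 1.72), and the 6 nearest the 3′ end had a median of 1.13 (1.07 to 1.46). The Spearman correlation of order along the RNA with log2 fold was -0.85 across the 12 peaks. It was -0.83 across the 8 intervals left when peaks within 50 bases were merged, and -0.94 across the 6 peaks at least 20 bases wide. Each merged interval took the highest fold of its parts. Width itself had a Spearman correlation of -0.03 with fold. The points share their libraries and their transcript and include touching pairs, so the correlation is given as a description without a p.

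**Figure D2:**
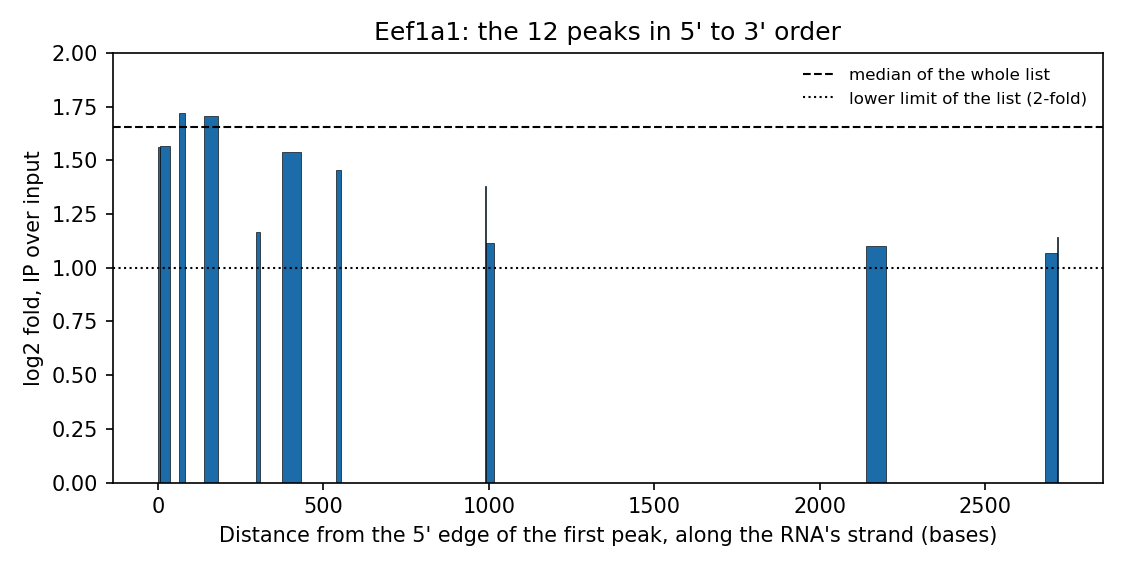
Log2 fold of IP over input (vertical axis) of the 12 Eef1a1 peaks against distance in bases from the 5′ edge of the first peak along the RNA's strand, each bar as wide as its peak, with the list median dashed and the 2-fold limit of the list dotted. The first 4 bars stand at 1.56 to 1.72, and those beyond 2000 bases at 1.07 to 1.14.

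The Eef1a1 peaks were set beside every other chain of at least 10 peaks on one strand joined at up to 10000 bases, of which the list held 659. The Eef1a1 chain spanned 2718 bases, and 5.16% of the other chains were shorter; their median span was 22.0 kb. Its median log2 fold of 1.42 was above that of 109 of the other chains (16.5%), whose medians centred on 1.66. Its highest peak, at 1.72, exceeded the highest peak of only 12 other chains, whose highest peaks had a median of 2.74. The Eef1a1 chain was thus short and lacked the strong single peaks that most long chains contained. The highest peaks were compared without matching chains on their number of peaks, and a chain of more peaks has more values from which its highest is taken.

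The rank order of folds, taken 5′ to 3′ along the strand, was also compared between chains, which says how regularly folds declined and not by how much. The other chains were not assigned to genes, so a chain is not known to lie within a single RNA. The Spearman correlation of order with fold was lower than that of Eef1a1 in 2 of the 659 other chains and equal to it in 1, so that 3 chains (0.455%) were at least as low; the median of the others was -0.09. This coefficient varies more in chains of few peaks, so the 390 other chains of 10 to 14 peaks were also compared. The same number, 3 (0.769%), were at least as low as Eef1a1, and the median was -0.08. Chains were not matched on span. The chain equal to Eef1a1, at -0.85, was also short, with 12 peaks over 1830 bases. Other short chains also had low coefficients, such as -0.91 over 3854 bases and -0.81 over 1547 bases, whereas some were positive, such as 0.66 over 1925 bases. The rank of Eef1a1 among chains of similar span was not compared. Negative values were common, at 58.1% of the other chains. Eef1a1 was looked at because of its place among the 4 genes, but this measure was chosen after its fold values were seen, and no test was made.

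**Figure D3:**
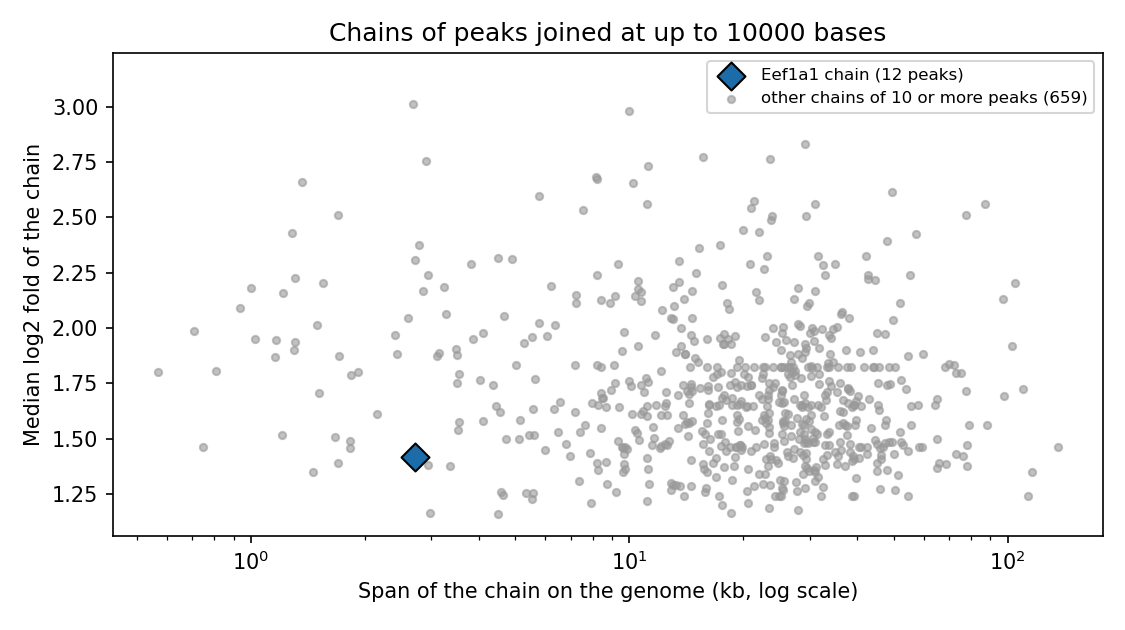
Median log2 fold of each chain of 10 or more peaks joined at up to 10000 bases (vertical axis) against its span on the genome in kb (horizontal log axis); the diamond is the Eef1a1 chain and grey points are the 659 other chains. The Eef1a1 chain lies at 2.72 kb and 1.42, in the short and weakly enriched part of the plot.

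The Eef2 window (chromosome 10, plus strand, 80638000 to 80647000) held 3 peaks that together covered 93 bases. A touching pair came first, where the interval 80641827 to 80641837 had a log2 fold of 1.65 and the interval 80641838 to 80641868 had 1.64. The third lay 3265 bases further 3′, at 80645134 to 80645184, with 1.43. The peak nearest the 3′ end was both the widest, at 51 bases, and the weakest. None of the 3 lay above the list median; the first equalled it, and the weakest exceeded 34.7% of the list.

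Eef2 is compact and rich in exons in the GENCODE M21 annotation of GRCm38, with 14 exons within 5.87 kb, and it hosts the snoRNA gene Snord37 on its own strand. No peak lay between the touching pair and the third peak. The opposite strand of the window held 0 peaks, and the nearest peaks on the plus strand lay 25.1 kb below the window, with a log2 fold of 2.94, and 49.6 kb above it, with 2.05. Both neighbours were thus more enriched than any Eef2 peak. With 3 peaks, a decline along the RNA cannot be told from the order of 3 values.

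The Rps26 window (chromosome 10, minus strand, 128060500 to 128065500) held a single peak, at 128063277 to 128063292. It was 16 bases wide and had a log2 fold of 1.74 (3.35-fold), above 55.0% of the list. Rps26 encodes a protein of the small ribosomal subunit, which lies near the mRNA exit channel. Its gene is short, with 4 exons and an mRNA of 681 bases in GENCODE M21. The nearest other peaks on the minus strand lay 33.9 kb below the window, with a log2 fold of 1.41, and 54.0 kb above it, with 1.24. The opposite strand held 0 peaks in the window and none within 120 kb of it. The same log2 fold was given for 235 peaks of the list, the Rps26 peak included, so the value is a recurring one.

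The Rpl3 window (chromosome 15, minus strand, 79906000 to 79917000) held 0 peaks on either strand, although its 11.0 kb made it the widest of the 4 windows. Rpl3 encodes a protein of the large ribosomal subunit near the peptidyl transferase centre. On the minus strand, the next peaks lay 108.0 kb below the window, with a log2 fold of 1.34, and 175.0 kb above it, with 2.56. The window thus stood in a peak-free stretch of 294 kb. On the minus strand of chromosome 15, 55 of 1218 gaps between neighbouring peaks (4.52%) were at least as long, this one included, and the median gap was 2.02 kb. That share counts gaps and not bases, and a long gap takes in more positions than a short one. It therefore does not say how often a window placed on this strand would fall in such a stretch. The plus strand had a peak 4.83 kb above the window.

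A count of 0 in this list says that no interval passed the authors' limits, not that eIF4A2 was absent from the RNA. Reads that match a near-identical copy of a gene can be lost or split, and the handling of such reads is not given in the sources used here. GENCODE M21 names 2 pseudogenes after Rpl3 and 1 after Rps26, and 0 with such names for Eef1a1 and Eef2. Copies under other names were not counted, and the part of such copies in the counts was not tested. Rpl3 also hosts 2 snoRNA genes on its own strand, Snord83b and Gm22077. The annotated loci of Eef1a1 (10.7 kb) and Rpl3 (14.1 kb) are longer in GRCm38 than their windows of 7.0 and 11.0 kb. Widening all windows by 10000 bases on each side, however, changed none of the 4 counts.

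The members had early places in the authors' numbering of the peaks. Peaks are numbered by chromosome and strand, and within a strand an early number went with wider peaks (median Spearman correlation -0.47 over 40 strands) and with somewhat higher folds (median correlation -0.36). It went more strongly with a larger sum of numerator and denominator in the ratio behind the fold, described under Other observations (median correlation -0.69). That sum had a median of 136 among the members, against 17 in the list. However, 5 of the 16 members had a denominator of at most 10. Whether the size of the ratio underlies the members' places was not tested. The 3 Eef2 peaks stood at places 9, 11 and 23 of 1094 on their strand, and the Rps26 peak stood at place 51 of 1189. The 12 Eef1a1 peaks stood at places 21 to 208 of 1107, and 11 of them were within the first 10%. Among the peaks in the first 10% of that strand, the 11 from Eef1a1 had a median log2 fold of 1.46, and the 99 others had a median of 1.95. The Eef1a1 peaks in this part of the numbering were thus lower in fold than the others there, and the same was not compared for Eef2 and Rps26. What the authors ordered the peaks by is not given in the sources used here.

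**Figure D4:**
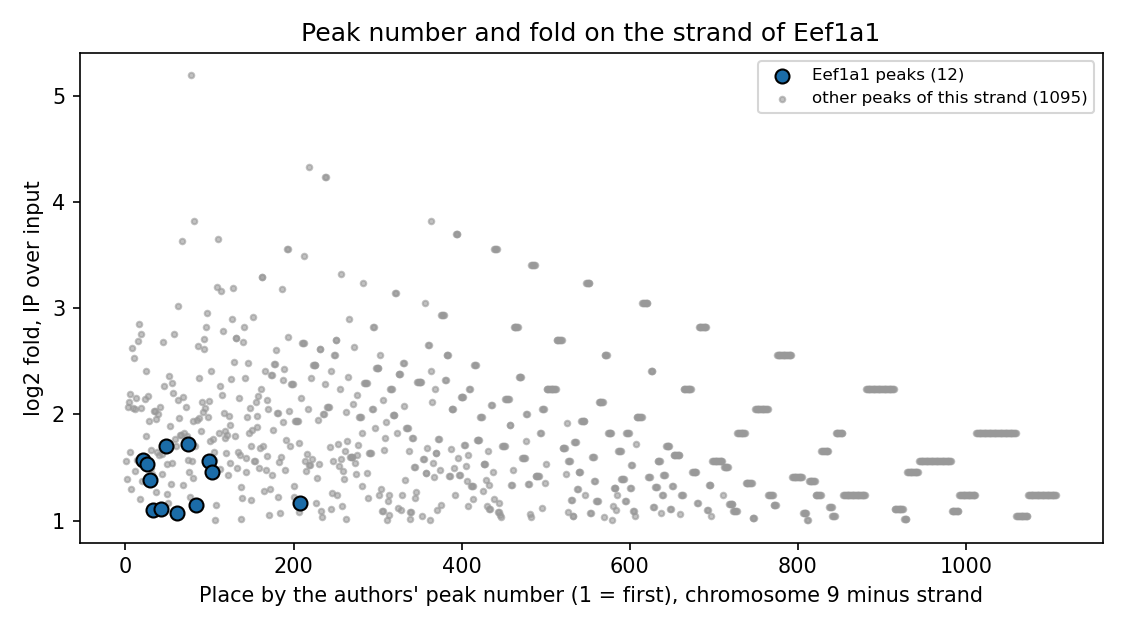
Log2 fold of IP over input (vertical axis) against place by the authors' peak number on the minus strand of chromosome 9, where 1 is the first; blue points are the 12 Eef1a1 peaks and grey points the 1095 other peaks. The Eef1a1 peaks lie at places 21 to 208 with folds of 1.07 to 1.72, below most peaks with similar numbers.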

How the data were processed

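IP and input eCLIP libraries from embryonic stem cells underlie 1 deposited peak list, and the labels describe the replicates as biological. The submitters' processing notes list the tools cutadapt 1.18 and STAR 2.6.1b beside the build mm9. Not given in the sources used here are the peak caller, the significance limit and the way replicates were combined. Each peak's deposited value is a log2 fold, IP over input; no header states the scale, which was read from the values. The depth of the libraries is unknown.

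Peaks were assigned to a gene by midpoint and strand, in windows given for each gene. Starts were changed to count from 1. All members were described in full, by a rule that names every peak of a window of up to 12 peaks. The genes, windows and measures were chosen with earlier results of these data known. Chains were formed on one strand at up to 1000 or 10000 bases. No significance test was made. Only the forming of chains, the merging of peaks and the recovery of the constant and ratios given under Other observations were tested on simulated data. The simulated ratios were made of smaller numbers than the largest of the members' ratios. Alternatives were other assignments of peaks, merging within 50 bases, a width of at least 20 bases and higher fold limits. A merged interval was given the highest fold of its parts. Python 3.11.15, numpy 2.4.6, pandas 2.3.3, scipy 1.17.1 and matplotlib 3.10.9 were used.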

Additional observations from a re-analysis of the deposited data

How the results depend on the processing

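Of 38 alternative values, 26 kept the count within 1.5 times or the median within 0.1 on the log2 scale. Among these 26, the Rps26 values after merging within 50 bases or weighting by width were fixed in advance, since its window holds a single peak. Beside the 38, another 11 could not move, since they applied a stricter limit or merging to a count of 0. The counts of 12, 3, 1 and 0 peaks were the same when a single shared base sufficed and when windows were widened by 1000 bases. Widening by 10000 bases, a setting chosen after seeing the data, also left them the same. The opposite strand gave 0 peaks for Eef1a1, Eef2 and Rps26, and a log2 fold of at least 2 likewise left 0. A width of at least 20 bases left 6 Eef1a1 peaks and 0 Rps26 peaks, since the Rps26 peak is 16 bases wide. The Eef2 median of 1.64 became 1.43 when weighted by width, 1.54 after merging within 50 bases, and 1.54 both without peaks under 20 bases and without its highest peak, because it rests on 3 peaks. The Rps26 median could not be had for a width of at least 20 bases or without its highest peak. No paired analysis was possible because each peak has 1 value for all libraries together, which also means that no replicate could be left out. The effect of sequencing depth could not be assessed without counts.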

Other observations

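After a constant of 0.239745315 was taken off the log2 scale, the folds of all 16 member peaks equalled ratios of whole numbers with a denominator of at most 200 (relative tolerance 1e-08), as did 47758 of the 47777 peaks. The members' ratios were made of larger numbers than is usual for the list. Their median denominator was 42, against 4 in the list, and the sum of numerator and denominator had a median of 136, against 17. Of the 16 ratios, 5 (31.2%) had a denominator of at most 10, against 75.6% of the list. None of the 16 was a whole number, against 27.8% of the list. The widest Eef1a1 peak had the ratio 289 to 159 and the 3′-most Eef2 peak 231 to 101, whereas the Rps26 peak had 17 to 6. The ratios are reduced to their smallest terms and do not give read counts, which the list does not hold. Over the 40 strands, an early peak number went with a larger sum of numerator and denominator (median Spearman correlation -0.69, range -0.76 to -0.64).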
